A study of Bos taurus with 47 samples.

Results

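S100A12 (ENSBTAG00000012638), S100A8 (ENSBTAG00000012640) and S100A9 (ENSBTAG00000006505), the calgranulins, were followed through 47 RNA-seq libraries of Holstein cattle. These 3 of the 24616 gene identifiers in the deposited table were chosen by their measured values, because all of them were highest in rumen. Their levels by tissue, the differences of rumen from spleen, lung and lymphocytes, and their co-variation are therefore given as descriptions, with no test. Only differences between males and females, which the choice did not use, were tested. The table does not pair identifiers with names, so the symbols are those supplied with the identifiers.

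Rumen, ileum, spleen, lung, liver, kidney, heart, muscle, frontal cortex and adipose tissue were each sampled in the same 4 animals, which are called male A, male B, the lactating cow and the dry cow here. Ovary and uterus came from both cows, the lactating mammary gland from the lactating cow, the dry mammary gland from the dry cow, and lymphocytes from a further male, with 1 library for each of these last 3 labels. No treatment or age is given in the labels, and no genotype beyond the breed. Because each sex is represented by 2 animals, and because the females were a lactating and a dry cow, sex cannot be told apart from any other difference between those animals. These are bulk samples, in which fewer cells of a type and less RNA per cell cannot be told apart.

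Calgranulins are small calcium-binding proteins of the S100 family. S100A8 and S100A9 pair to form calprotectin, which withholds zinc and manganese from microbes, and S100A12 is a zinc- and copper-binding relative. All of them are abundant in the cytoplasm of neutrophils and monocytes, act as alarm signals through the receptors TLR4 and RAGE once released, and are also made by stratified squamous epithelia. The rumen is lined by such an epithelium, whose surface is keratinised. In the RefSeq gene table of a later cattle assembly, S100A8, S100A12 and S100A9 are consecutive protein-coding genes in that order, beside PGLYRP4, a peptidoglycan recognition protein gene.

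Levels are FPKM, fragments per kilobase of transcript per 1000000 mapped fragments, which allow comparison between genes per length. Summed over all identifiers, FPKM ran from 576130 to 964931 in single libraries. The depth in fragments is unknown, and steps among low values placed the libraries' depths between 0.781 and 1.56 relative to each other. None of the 3 genes was listed at 0 in any library. Identifiers could not be joined to symbols, so the tissue labels and the presence of neutrophils, macrophages or epithelium were not checked against marker genes, and other S100 genes and calgranulin receptors were not described.

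In rumen the calgranulins were among the most abundant transcripts of the tissue. S100A12 stood at 30133 FPKM in male A, 40853 in male B, 46494 in the lactating cow and 41481 in the dry cow, a mean of 39740 ± 6884 (SD, n = 4). It ranked 1st among all identifiers in each of the 4 rumen libraries. S100A8 stood at 12685, 22073, 20330.1 and 15495 FPKM in the same order of animals, a mean of 17646 ± 4322 (SD, n = 4). It ranked 2nd in the lactating cow and 3rd in the other 3 animals. S100A9 was lower and more variable, at 2435, 8392, 5826 and 4841 FPKM, a mean of 5373 ± 2465 (SD, n = 4). Its rank ran from 6 in male B to 63 in male A. Male A had the lowest rumen value of all 3 genes. The coefficient of variation among the 4 animals was 17.3% for S100A12, 24.5% for S100A8 and 45.9% for S100A9. Together the 3 genes made up 7.51% ± 1.42 of the summed FPKM of rumen (SD, n = 4), between 5.59% and 8.72% in single libraries.

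**Figure D1:**
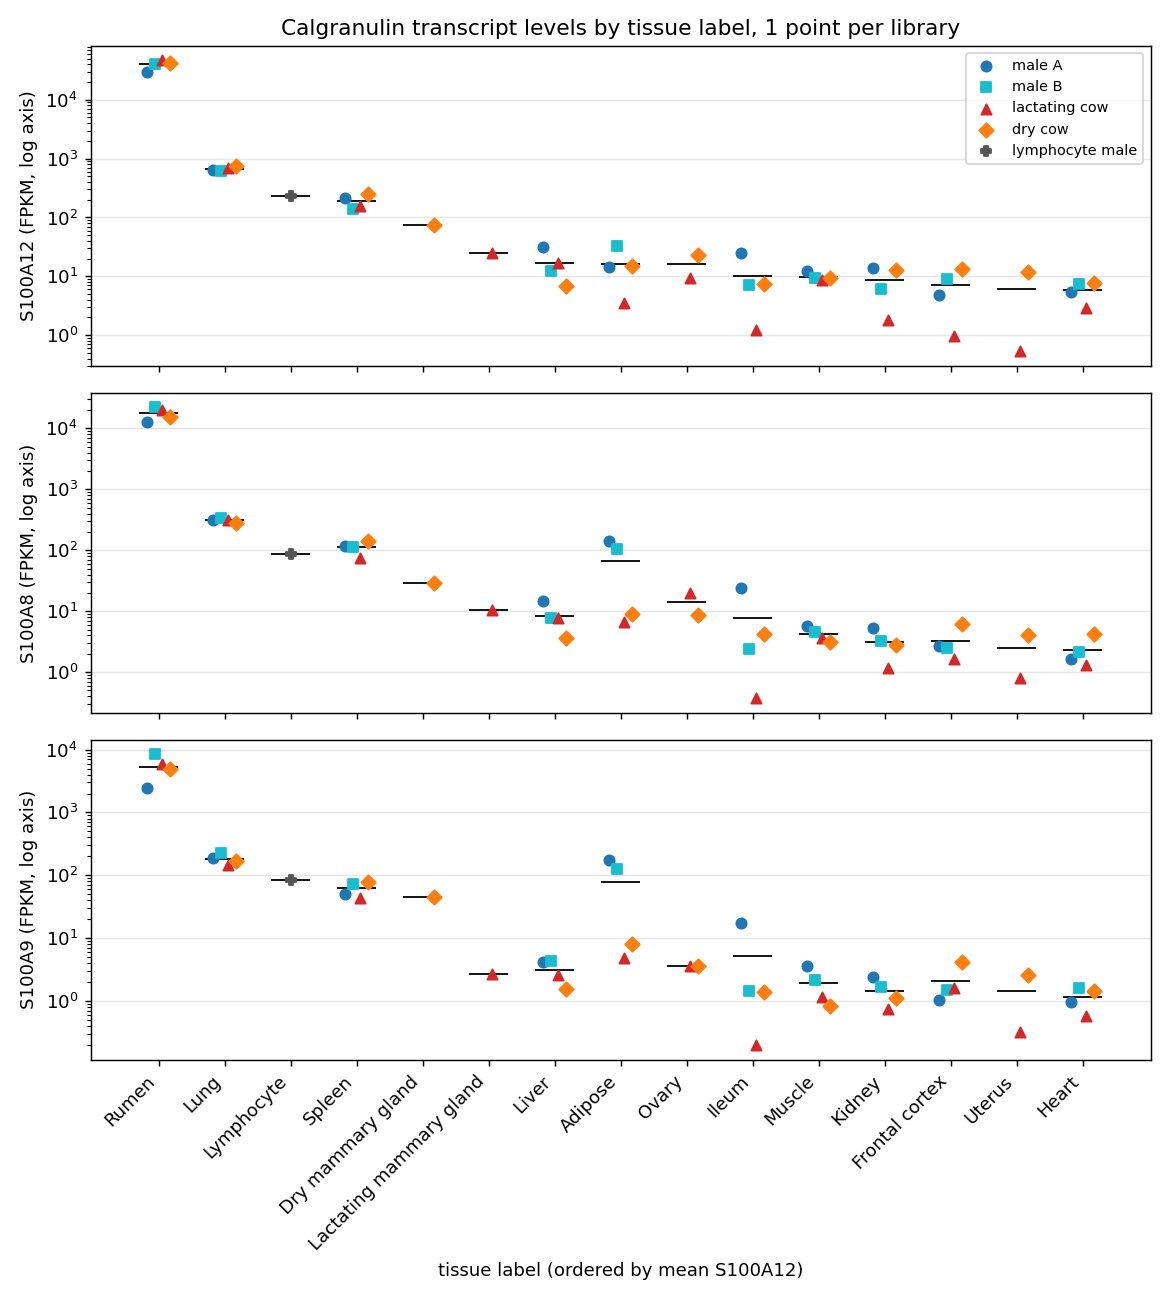
FPKM of S100A12, S100A8 and S100A9 on logarithmic axes in each of 47 libraries, by tissue label, with 1 point per library and a line at the label's mean. All 4 rumen libraries lie above every other library, with lung next, and the values in adipose, ileum and uterus spread widely between animals.

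Lung was the label with the second-highest mean for each of the 3 genes, and its animals were close together. S100A12 in lung stood at 638 FPKM in male A, 614 in male B, 691 in the lactating cow and 747 in the dry cow. S100A8 stood at 311, 336, 317 and 282 FPKM, and S100A9 at 191, 226, 146 and 167 FPKM. The coefficients of variation, 8.86%, 7.18% and 18.8%, were below those of rumen. The rumen mean exceeded that of lung by 59.1-fold for S100A12, 56.6-fold for S100A8 and 29.5-fold for S100A9. Among 16634 identifiers with at least 1 FPKM in 2 or more libraries, 63, 65 and 82 had a fold at least this large between rumen and their own next-highest label.

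Spleen and the lymphocyte library came below lung. In spleen S100A12 stood at 212 FPKM in male A, 140.3 in male B, 157 in the lactating cow and 253 in the dry cow. S100A8 stood there at 119.6, 111, 74.3 and 141 FPKM, and S100A9 at 50.2, 73.5, 43.8 and 79.2 FPKM. The lymphocyte library, a single one, held S100A12 at 232 FPKM, S100A8 at 87.9 and S100A9 at 84.6. All 4 lung libraries lay above all 4 spleen libraries for each gene, as was the case for 23% of the 16634 identifiers, and the means differed by 3.53-fold for S100A12, 2.79-fold for S100A8 and 2.96-fold for S100A9. The lymphocyte value fell within the spleen range for S100A12 and S100A8 and above it for S100A9. The 3 genes together made up 0.190% of the summed FPKM in lung, 0.0485% in spleen and 0.0603% in the lymphocyte library.

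The contrast of rumen with these labels was largest for S100A12 against spleen, where the means differed by 209-fold. On the log2(FPKM + 1) scale the difference was 7.72 ± 0.24 (SE, n = 4 and 4), and the lowest rumen library was 119-fold above the highest spleen library. For S100A8 the difference from spleen was 7.30 ± 0.27, or 158-fold between means, and for S100A9 it was 6.33 ± 0.43, or 87.2-fold. Against lung the log2 differences were 5.87 ± 0.15 for S100A12, 5.79 ± 0.19 for S100A8 and 4.76 ± 0.40 for S100A9. Against the lymphocyte library, which has no error of its own, they were 7.40, 7.60 and 5.84, or 171-, 201- and 63.5-fold between means. Even the closest pair, the lowest rumen and the highest lung value of S100A9, was 10.8-fold apart. The median over the 16634 identifiers was -0.32 for rumen minus spleen, -0.37 for rumen minus lung and -0.11 for rumen minus lymphocytes, opposite in sign to the calgranulins.

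Within single animals the fold of rumen over lung varied most for S100A9. It was 12.8 in male A, 37.1 in male B, 39.8 in the lactating cow and 29.1 in the dry cow. The corresponding folds were 40.7, 65.7, 64.2 and 54.9 for S100A8, and 47.3, 66.6, 67.3 and 55.5 for S100A12. Male A thus had the smallest fold over lung for every calgranulin. Against spleen the within-animal folds of S100A8 were 106, 199, 274 and 110.04, again smallest in male A.

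After rumen and lung, the 3 genes differed in their order of tissues. In the dry mammary gland S100A12 stood at 75.2 FPKM, S100A9 at 44.3 and S100A8 at 28.5. In adipose tissue S100A9 had a mean of 78.0 FPKM, above that of spleen, and S100A8 of 65.7, below it, whereas S100A12 had a mean of 16.5. These adipose means hide a split between animals that is described with the comparison of sexes. The lactating mammary gland, liver, ovary, ileum, muscle, kidney, frontal cortex and uterus lay below the dry mammary gland, in an order that differed between the genes. For S100A12 the lactating mammary gland (24.8 FPKM) and liver (16.7 FPKM) stood above adipose. Heart had the lowest mean of every calgranulin, 5.83 FPKM for S100A12, 2.31 for S100A8 and 1.14 for S100A9. From the lactating mammary gland downward for S100A12, from the ovary for S100A8 and from the ileum for S100A9, each label's range overlapped that of its neighbour in the order of means.

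Across all 47 libraries the 3 genes varied together. Spearman's rho was 0.962 between S100A8 and S100A9, 0.934 between S100A8 and S100A12 and 0.885 between S100A9 and S100A12. The Pearson correlations of log2(FPKM + 1) were 0.987, 0.972 and 0.947. Without the 4 rumen libraries the rho values over the remaining 43 libraries were 0.950, 0.914 and 0.850. The libraries share animals, tissues and a common scaling, so these values describe the set of libraries and carry no p. When each library was taken as its deviation from its tissue's mean, over the 40 libraries of the tissues with all 4 animals, rho was 0.853 for S100A8 and S100A9, 0.690 for S100A8 and S100A12 and 0.568 for S100A9 and S100A12. Without adipose and ileum, over 32 libraries, these were 0.798, 0.677 and 0.518, whereas the Pearson correlation was 0.786 for S100A8 and S100A9 and 0.803 for S100A8 and S100A12. Which gene followed S100A8 most closely within tissues thus depended on the measure once adipose and ileum were left out, and S100A9 and S100A12 had the lowest value by both.

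**Figure D2:**
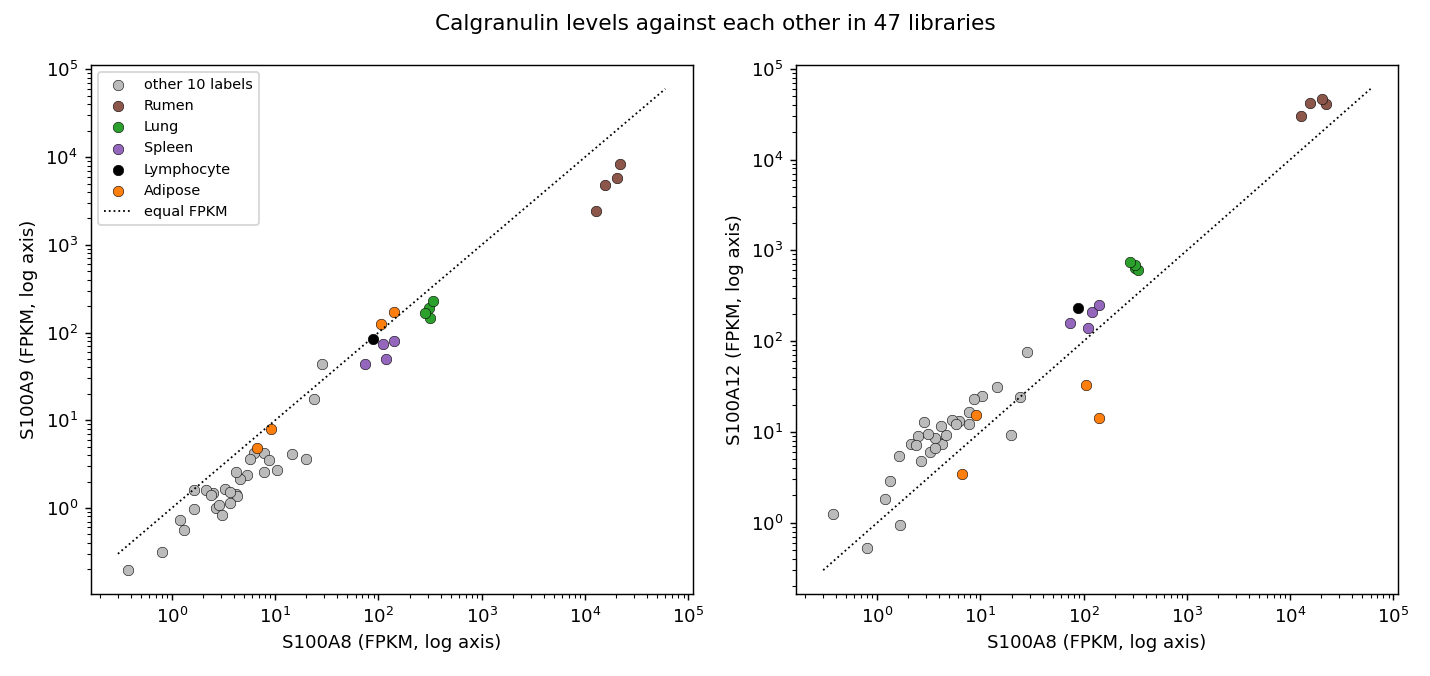
S100A9 and S100A12 against S100A8, in FPKM on logarithmic axes, with 1 point per library for 47 libraries and a dotted line of equal FPKM. The rumen libraries sit at the upper end, and 3 of the 4 adipose libraries fall below the line for S100A12.

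For each calgranulin, the identifiers with the most similar pattern over the 47 libraries were the other 2 calgranulins. Among the remaining 16631 identifiers, the mean of the 3 Pearson correlations exceeded 0.9 for only 2, and its median was 0.0539. ENSBTAG00000008299 had a mean r of 0.909 and followed the same leading order, with 47.2 FPKM in rumen and 15.8 in lung as its highest means. ENSBTAG00000001785 had a mean r of 0.906, with 1728 ± 685 FPKM in rumen (SD, n = 4) and 7.03 in spleen, its next label. The most opposite patterns were those of ENSBTAG00000010952 (mean r of -0.71) and ENSBTAG00000004222 (mean r of -0.70), both highest in kidney, at 6.98 and 81.2 FPKM, against 0.0810 and 2.36 FPKM in rumen.

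The mean proportion of S100A12 to S100A8 ran from 1.55 in ovary to 2.69 in heart, in labels with high and low levels alike. Adipose, at 0.655 ± 0.706 (SD, n = 4), was the exception to that range of the proportion. This proportion was 2.30 ± 0.341 in rumen, 2.18 ± 0.348 in lung and 1.74 ± 0.354 in spleen (SD, n = 4 each), and 2.64 in the lymphocyte library. S100A12 was at or above S100A8 in 41 libraries and below it in 6. Those 6 were adipose of male A (ratio 0.1005), adipose of male B (0.310), adipose of the lactating cow (0.528), and the frontal cortex (0.577), ovary (0.469) and uterus (0.657) of the lactating cow. The proportion of S100A9 to S100A8 set rumen apart from the other labels with high levels. It was 0.293 ± 0.0779 in rumen, between 0.192 and 0.380, against 0.584 ± 0.0887 in lung and 0.558 ± 0.101 in spleen (SD, n = 4 each), with no overlap between rumen and either tissue. In the lymphocyte library it was 0.963. Among labels with low levels, liver (0.280 to 0.552) and muscle (0.270 to 0.629) overlapped the rumen range. So did ovary, ileum, heart and the lactating mammary gland, whereas kidney, uterus and frontal cortex lay above it. S100A9 exceeded S100A8 in 3 libraries, adipose of male A (1.22), adipose of male B (1.19) and the dry mammary gland (1.55).

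Libraries of other labels also held small amounts of transcripts that were otherwise restricted to rumen. As genes restricted to rumen, 10 identifiers were taken whose rumen mean reached 2000 FPKM and was 100 times or more above each other label's mean. In 33 of the 43 libraries of other labels, the median of these genes was between 79.6 and 777 parts per 1000000 (ppm) of their rumen mean. In the other 10 libraries it was between 0 and 6.51 ppm. Those 10 libraries were the lymphocyte library and, from the lactating cow, adipose tissue, frontal cortex, heart, ileum, kidney, lung, ovary, spleen and uterus. The 33 libraries are called trace-holding and the 10 trace-lacking in what follows.

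In 9 labels with low calgranulin levels (frontal cortex, heart, ileum, kidney, lactating mammary gland, liver, muscle, ovary and uterus), the 23 trace-holding libraries had S100A12 between 4.75 and 31.5 FPKM, with a median of 9.50. The 6 trace-lacking libraries, all from the lactating cow, had it between 0.530 and 9.23 FPKM, with a median of 1.53. None of them was of liver, muscle or lactating mammary gland, so lack of traces, animal and mix of tissues cannot be told apart here. The medians of S100A8 were 4.15 FPKM in the trace-holding and 1.25 in the trace-lacking libraries, and those of S100A9 were 1.66 and 0.647. The ranges of the trace-holding and trace-lacking libraries overlapped for each gene. In the 23 trace-holding libraries the restricted genes had medians of 79.6 to 571 ppm of their rumen mean. Expressed likewise, S100A12 stood at a median of 1.35 times that trace (range 0.781 to 3.82), S100A8 at 1.17 times (0.727 to 5.47) and S100A9 at 1.80 times (0.805 to 9.91). The 9 labels were chosen for low calgranulin levels, so how near these values lie to the trace was set in part by that choice. Adipose was left out, though its S100A12 mean of 16.5 FPKM was below that of liver, 16.7 FPKM. Across the 23 trace-holding libraries, which share animals and scaling, Spearman's rho with the mean ppm of the restricted genes was 0.743 for S100A12, 0.637 for S100A8 and 0.406 for S100A9. Single genes weigh more in that mean than in the median used above. In the ileum of the dry cow the mean was 749 ppm and the median 239 ppm. The rho with the median was not computed. The lactating cow had the lowest S100A12 of the 4 animals in 5 of the 7 tissues where its library lacked traces. Among its other 3 shared tissues, liver, muscle and rumen, it had the lowest in 1, muscle. Its liver and muscle libraries held traces. The restricted genes were defined by their level in rumen, so rumen libraries were scored by genes restricted to liver instead. For S100A8 and for S100A9 these counts were 6 of 7 and 0 of 3. The part of the traces in these low values was not tested.

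In lung, spleen and lymphocytes the calgranulins lay above the median trace. By choice, each restricted gene's mean was at least 100 times lower in every other label than in rumen. The lung means of S100A12, S100A8 and S100A9 were only 59.1-, 56.6- and 29.5-fold lower. In label means, their place above the traces in lung was therefore set by that choice. So was that of S100A9 in spleen (87.2-fold) and in the lymphocyte library (63.5-fold). In the lung library of the lactating cow, where the restricted genes had a median of 6.51 ppm, S100A12 stood at 17388 ppm of its rumen mean, S100A8 at 17945 and S100A9 at 27226. In spleen the medians were 131 ppm in male A, 87.9 in male B, 0 in the lactating cow and 389 in the dry cow, and S100A12 stood at 5331, 3530.3, 3959 and 6354 ppm. Single restricted genes reached more than their median, up to 12947 ppm in the spleen of male B, which was above S100A12 and S100A8 (6302 ppm) and below S100A9 (13679 ppm) in that library. In the lymphocyte library the median of the restricted genes was 0 ppm.

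**Figure D3:**
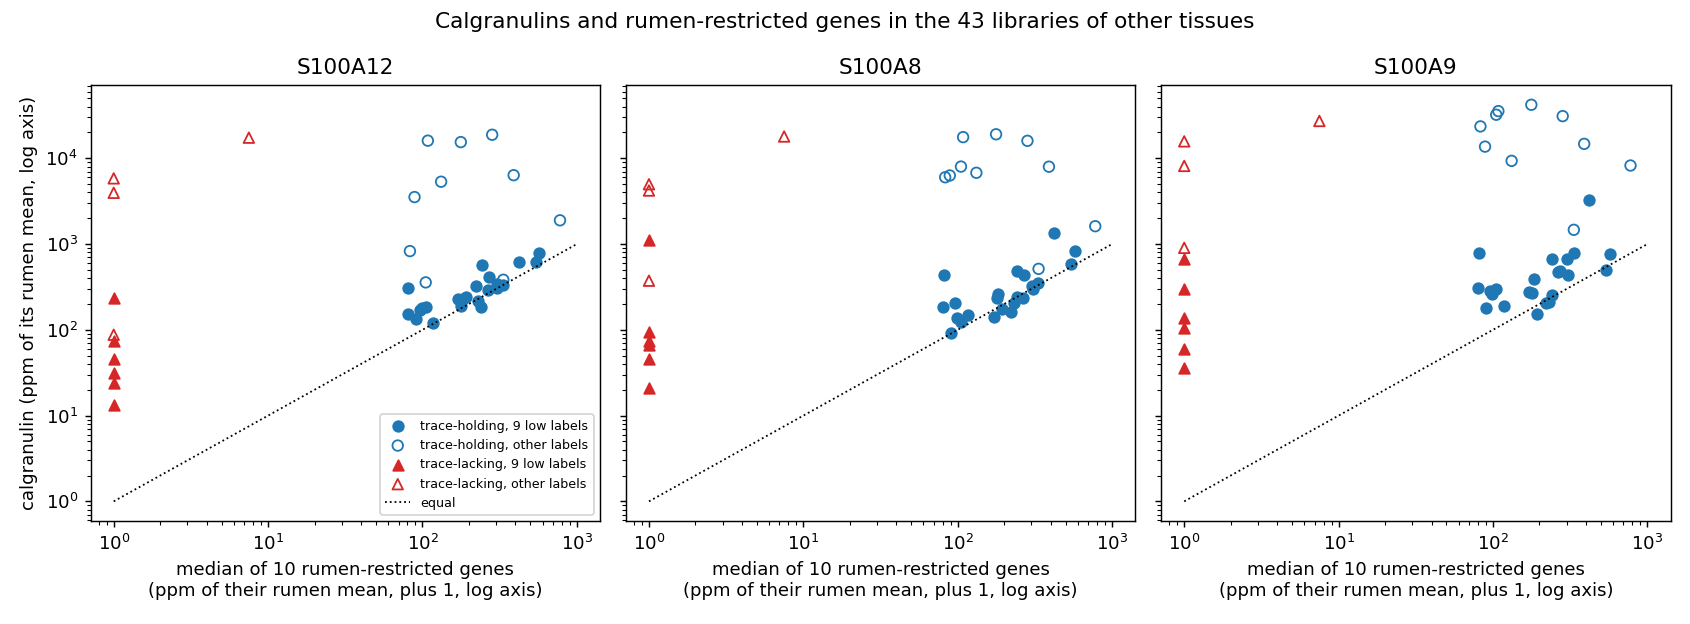
Each calgranulin in ppm of its rumen mean against the median of 10 rumen-restricted genes in ppm of theirs, plus 1, on logarithmic axes for the 43 libraries of labels other than rumen. The filled circles, 23 trace-holding libraries of low labels, lie mostly near the dotted line of equal values. The filled triangles, 6 trace-lacking libraries of low labels, have a median trace of 0 and lie above it. Open symbols are the other labels, and lung and spleen lie far above the line. Adipose of the dry cow lies near it for S100A12 (383 against 333 ppm). The low labels were chosen by the calgranulin levels themselves, so the higher place of most open symbols was set by that choice. The lower place of the filled symbols was set by it in part.

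S100A8 and S100A9 differed most between males and females in adipose tissue. S100A8 there stood at 141 FPKM in male A and 106.01 in male B, against 6.60 in the lactating cow and 9.07 in the dry cow. S100A9 stood at 173 and 126 FPKM in the males, against 4.85 and 7.88 in the cows. The males lay above the cows for both genes without overlap, as did 17.6% of the 16503 genes tested in adipose. The male minus female difference on the log2(FPKM + 1) scale was 3.82 ± 0.65 (SE) for S100A8, with an adjusted p of 0.000275 in limma. For S100A9 it was 4.37 ± 0.60, with an adjusted p of 2.45e-05 in limma. Limma called 5.13% of the 16503 genes tested as higher in males in adipose tissue. S100A9 had the 2nd and S100A8 the 3rd largest male-higher difference among them.

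For S100A12 the difference in adipose was not called. It stood there at 14.2 FPKM in male A, 32.9 in male B, 3.48 in the lactating cow and 15.2 in the dry cow, so that the sexes overlapped. Its difference was 1.41 ± 0.82, with an adjusted p of 0.316 in limma. Traces of rumen-restricted genes in these 4 libraries had medians of 104 ppm in male A, 82.0 in male B, 0 in the lactating cow and 333 in the dry cow. In the males S100A8 stood at 8006 and 6008 ppm of its rumen mean, and S100A9 at 32195 and 23530.3 ppm, all above the traces. The adipose mean of S100A9 (78.0 FPKM) was less than 100 times below its rumen mean (5373 FPKM). Its place above the traces was thus set, in label means, by the choice of restricted genes. S100A12 stood at 357 and 828 ppm in the males and at 383 ppm in the dry cow.

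In ileum a single library carried much of the difference. S100A8 stood at 23.9 FPKM in male A, 2.40 in male B, 0.372 in the lactating cow and 4.26 in the dry cow, and S100A9 at 17.5, 1.42, 0.195 and 1.36 FPKM. Male A was high and the lactating cow low, and for S100A8 the other male and the dry cow lay in the reverse order. Limma called both genes higher in males, by 1.78 ± 0.65 for S100A8 (adjusted p = 0.0484) and by 1.99 ± 0.60 for S100A9 (adjusted p = 0.0163), against a background of 15.3% of genes that limma called male-higher in ileum. Without male A the differences were 0.34 and 0.53, with adjusted p of 0.877 and 0.592 in limma, and without the lactating cow they were 0.81 and 1.502 and were not called. The S100A8 call was also lost in limma without the filter on low values (adjusted p = 0.0668), after rescaling to equal sums (adjusted p = 0.0570) and after quantile normalization (adjusted p = 0.0565). S100A12, at 24.4, 7.09, 1.24 and 7.43 FPKM, differed by 1.72 ± 0.82, with an adjusted p of 0.134 in limma. The traces of rumen-restricted genes had medians of 419 ppm in the ileum of male A, 97.6 in male B, 0 in the lactating cow and 239 in the dry cow, and their part in the difference was not tested.

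None of the 3 genes was called in any of the other 8 tissues, and none reached an unadjusted p under 0.05 there in limma. In rumen, where the levels were highest, the male minus female differences were -0.09 ± 0.65 for S100A8, -0.23 ± 0.60 for S100A9 and -0.32 ± 0.82 for S100A12. The share of all genes called in either direction was 0.37% in rumen, 0.248% in frontal cortex, 3.31% in heart, 1.18% in kidney, 0.491% in liver, 1.99% in lung, 0.594% in muscle and 1.02% in spleen. The 4 calls in adipose and ileum were thus the only ones among 30 tests of 3 genes in 10 tissues.

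**Figure D4:**
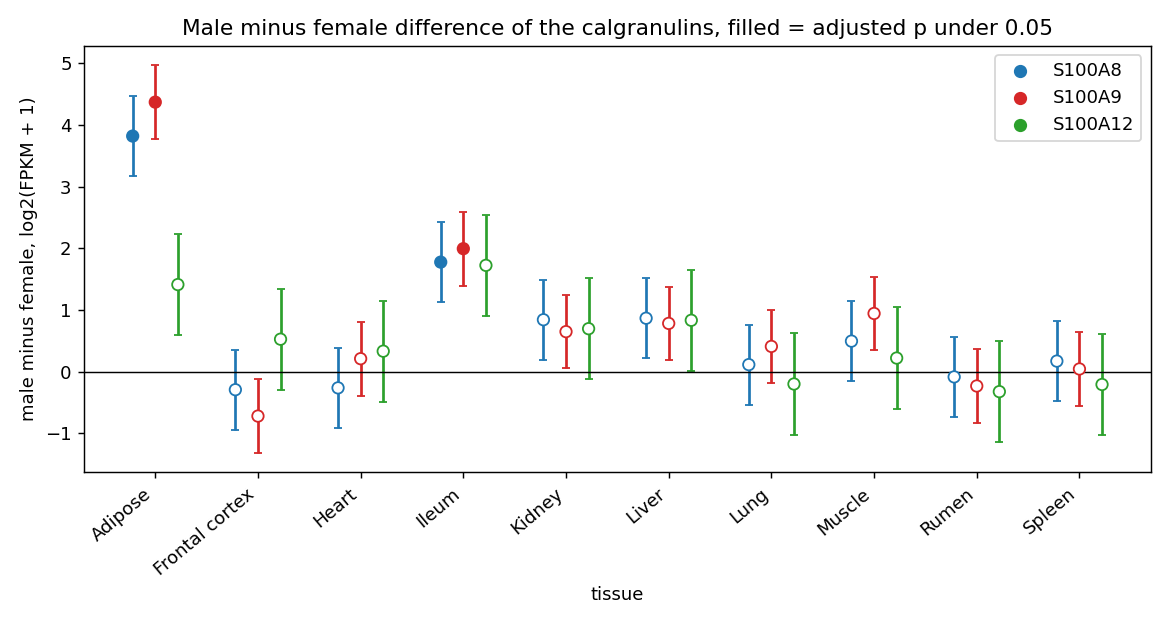
Male minus female difference of S100A8, S100A9 and S100A12 in each of 10 tissues, on the log2(FPKM + 1) scale, with bars of 1 SE from limma (2 males and 2 females a tissue) and filled points for an adjusted p under 0.05. S100A8 and S100A9 stand out in adipose at 3.82 and 4.37, whereas the rumen points lie near 0.

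For S100A8 and S100A9 the adipose difference was also larger than that of the other tissues. Compared with the mean male minus female difference of the other 9 tissues, it was larger by 3.42 ± 0.69 for S100A8 (adjusted p = 0.00195, limma) and by 3.92 ± 0.63 for S100A9 (adjusted p = 0.000222, limma). For S100A12 the excess was 1.01 ± 0.87 and was not called (adjusted p = 0.509, limma). In this comparison 3.99% of all genes were called as more male-higher in adipose. The same comparison for ileum called none of the 3 genes, with adjusted p of 0.259 for S100A8, 0.161 for S100A9 and 0.295 for S100A12 in limma. At an unadjusted p under 0.05 it also called none of them. Of all genes, 12.5% were called as more male-higher in ileum, and 1610 of 16503 were called in the opposite direction.

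Averaged over the 10 tissues, S100A8 and S100A9 were higher in males by 0.74 ± 0.21 and 0.84 ± 0.19, with adjusted p of 0.00957 and 0.00206 in limma over libraries, where 21.1% of all genes were called higher in males. S100A12 differed by 0.50 ± 0.26, with an adjusted p of 0.158. The libraries of 1 animal are not independent. On the means per animal, limma gave adjusted p of 0.127 for S100A8, 0.0564 for S100A9 and 0.380 for S100A12, and exact 2-sided permutation tests gave p of 0.333, 0.333 and 0.667, of which 0.333 is the smallest that 2 animals against 2 allow. Without adipose the differences were 0.40 for S100A8 and 0.45 for S100A9, with adjusted p of 0.170 and 0.0903 in limma, so that neither was called. Leaving out the lactating cow gave 0.49 and 0.67 and ended both calls, and leaving out male A gave 0.55 for S100A8 and ended that call.

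The mammary glands, 1 library each, allow no test. S100A8 stood at 10.4 FPKM in the lactating gland and 28.5 in the dry one, S100A12 at 24.8 and 75.2, and S100A9 at 2.70 and 44.3. The dry gland was higher by 2.74-fold for S100A8, 3.03-fold for S100A12 and 16.4-fold for S100A9. The median of 13002 genes was also higher in the dry gland, by 1.501 on the log2 scale, against 1.37 for S100A8, 1.56 for S100A12 and 3.61 for S100A9. A difference at least as large as theirs was found for 57.3%, 46.7% and 2.17% of those genes, so that S100A8 and S100A12 lay near the middle and S100A9 toward the upper end. Traces of rumen-restricted genes had a median of 777 ppm in the dry gland and of 540 ppm in the lactating one, and the 2 glands came from different cows.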

How the data were processed

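The authors deposited 1 table of FPKM with 24616 identifiers and 51 columns. Of these, 47 matched a sample by name and 4 matched none and were not used. Per the submitters' processing notes, Trimmomatic 0.39, STAR, Cufflinks and the UMD3.1 assembly were used; order, settings and annotation are not given in the sources used here. Per the labels' protocols, DNase-treated RNA was made into TruSeq libraries. The calgranulins and all lists were chosen with earlier results of these data known. Folds between labels are ratios of mean FPKM. Log2 differences are on the log2(FPKM + 1) scale, which understates those of low genes. The series' text gives 4 individuals, the labels 5 animals, and the labels were used.

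Limma 3.58.1 (R 4.3.3, intensity trend, Benjamini-Hochberg adjustment over all genes, threshold 0.05) was fitted to 40 libraries as 20 tissue-by-sex groups that share 1 spread. It covered 16503 genes with at least 1 FPKM in 2 libraries. A trial on simulated data drew libraries independently, without differences between animals, so it does not bear on the sharing of animals. Other tables were made in Python 3.11.15. The identifiers named beside the calgranulins are the 2 with the highest and 2 with the lowest mean correlation with them. Libraries were called trace-lacking below 50 ppm. Rumen libraries were scored by 18 genes restricted to liver by the same limits. Same-numbered samples are the same animal. Their deviations from tissue means had a median correlation of 0.182 over 180 library pairs, against -0.06 between animals. Lists of markers, receptors and other S100 genes, set by symbol, matched no identifier and were not applied. No sequence was used. Alternatives changed the pseudocount, scaling, filter and block, or left out animals, tissues or trace-lacking libraries.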

Additional observations from a re-analysis of the deposited data

Results flagged for a closer look

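In adipose tissue the male minus female difference of S100A8 exceeded the mean difference of the other 9 tissues by 3.42 on the log2(FPKM + 1) scale, and that of S100A9 by 3.92, by a limma test of the difference itself. In ileum the library of male A lay apart from the other 3 on the FPKM scale, at 23.9 FPKM for S100A8 and 17.5 FPKM for S100A9, where the gap to the next library took up 0.835 and 0.929 of the range, above Dixon's 95% critical value. On the log2(FPKM + 1) scale the same shares were 0.536 and 0.742, under it. These were the only such libraries on either scale among 30 combinations of a calgranulin and a tissue with 4 animals, of which chance flags about 1 in 20, and the FPKM scale was added after seeing the data.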

How the results depend on the processing

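Rumen stayed above spleen, lung and lymphocytes for each calgranulin under every alternative run. Of the 69 alternative values, 59 moved by less than the spread between animals. The 10 that moved by more were all under rescaling or quantile normalization. Leaving out 1 animal or the trace-lacking libraries cannot, by construction, move a difference by more than that spread, so those values are no check. Rescaling to equal FPKM sums gave a rumen mean of 32582 FPKM for S100A12, and log2 differences of 5.35 for S100A8 from lung, and of 5.43 and 7.08 for S100A12 from lung and lymphocytes. Quantile normalization, under which the median gene differed by -0.023, 0.0027 and -0.036 in these contrasts, gave 6.59, 4.95 and 6.93 for S100A8 from spleen, lung and lymphocytes, 6.54, 4.51 and 6.15 for S100A12, and 4.09 for S100A9 from lung. The mean of within-animal differences, the replicate block, equals the difference of means by construction (7.30 for S100A8 from spleen) and is not counted among these. Spearman's rho on deviations from tissue means was 0.853, 0.690 and 0.568.

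With the animal as a replicate block, 4 of the 30 sex tests within tissues were called, as without it. The correlation within animals used in that fit was only 0.0384, so the fit was close to the one without the block. Leaving out 1 animal gave 2 to 5 calls, with 2 without male A and 2 without the lactating cow, and leaving out the trace-lacking libraries gave 2. Adipose S100A8 and S100A9 were called under every alternative run, with differences of 3.61 to 4.02 and 4.07 to 4.67. The comparison of a tissue with the other 9 gave 2 to 4 calls when 1 animal was left out, with 4 without male B. For ileum it turned to -0.23 for S100A8 and -0.30 for S100A9 without male A, against at most 2.52 and 2.85 without other animals.

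The mean over 10 tissues was 0.74 for S100A8 and 0.84 for S100A9 on animal means, where neither was called, 0.40 and 0.45 without adipose, 0.23 and 0.26 without adipose and ileum, and 0.42 and 0.62 without trace-lacking libraries, again uncalled. Leaving out 1 animal gave 0.49 to 0.99 for S100A8 (0.55 without male A and 0.49 without the lactating cow, both uncalled), 0.67 to 1.02 for S100A9 and 0.02 to 0.99 for S100A12, called for S100A12 only without the dry cow. Without trace-lacking libraries S100A12 turned to -0.044. The cause of these shifts was not tested, and fewer libraries entered those fits. Where an animal was left out, the lone sample of its sex was assumed to vary like the other groups. Tests rest on 2 males and 2 females, depth is unknown, and no counting error could be given. Alternatives that leave out animals or tissues from the averages were chosen after seeing the data.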

Other observations

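In the ovary, sampled in both cows, S100A8 and S100A12 ran in opposite directions. S100A8 stood at 19.7 FPKM in the lactating cow and 8.64 in the dry cow, S100A12 at 9.23 and 22.8, and S100A9 at 3.63 and 3.55. The lactating cow's ovary library was trace-lacking.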
